A study of Mus musculus with 3 samples.

Results

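The genes described here encode the core of the cell cycle machinery in the adult mouse heart: cyclins, cyclin-dependent kinases (CDKs), their inhibitors, the E2F transcription factors and the pocket proteins. They were taken from the deposited table by gene symbol. The rule kept symbols made of Ccn, a letter and a digit, symbols of Cdk with digits and an optional a or b, symbols starting with Cdkn, symbols of E2f with a digit, and Rb1, Rbl1 and Rbl2. It found 56 of the 16587 genes of the table. These included Ccnb1-ps, a processed pseudogene of cyclin B1, and 3 genes that carry an inhibitor's name but belong to neither family of CDK inhibitors, Cdkn2aip, Cdkn2aipnl and Cdkn3.

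RNA came from hearts of wild-type (WT) male mice aged 12 weeks, as 3 libraries that form a single group, with no treatment and no second genotype to compare. The strain was not given in the sources used here, and nothing said whether the libraries came from separate animals or from pooled ones. A p-value here therefore measures only the spread between these 3 libraries, which may be technical. Total RNA was extracted with Trizol, and poly(A) RNA was captured, fragmented and joined to adaptors.

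As background, a cyclin binds a CDK and switches it on. D cyclins with Cdk4 and Cdk6 begin the phosphorylation of the pocket proteins Rb1, Rbl1 and Rbl2, which otherwise hold E2F factors in check, and E cyclins with Cdk2, A cyclins with Cdk2 and Cdk1, and B cyclins with Cdk1 then carry the cell through DNA synthesis and into mitosis. INK4 inhibitors (Cdkn2a to Cdkn2d) bind Cdk4 and Cdk6, and CIP/KIP inhibitors (Cdkn1a to Cdkn1c) act on several cyclin-CDK complexes. Most heart muscle cells of mammals leave the cell cycle soon after birth. Other genes with these names work outside the cycle, above all in transcription by RNA polymerase II.

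The libraries held 25311388, 26398140 and 24914479 counts. Levels in CPM are a gene's counts divided by the sum of its library and multiplied by 1000000. The limit that 0 counts allow, 3 counts, came to 0.119, 0.114 and 0.120 CPM in libraries 1, 2 and 3, for counting error only. All 10 heart muscle markers were detected, meaning at 1 CPM or more in every library, and summed to between 93390 and 98776 CPM. The heart also holds endothelium, fibroblasts, pericytes, smooth muscle and macrophages, and all 32 markers of these cells were detected, while 0 of 8 lymphocyte markers were. In such whole tissue, fewer cells of a type and less RNA per cell cannot be told apart, and the cell type that a count came from cannot be told apart either. Red cell markers summed to 2224, 1049 and 1698 CPM and liver markers to 126, 3.83 and 7.43 CPM in libraries 1, 2 and 3, both highest in library 1; their part in the levels given here was not tested.

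Of the 56 genes, 43 (76.8%) were detected, beside 71.3% of all genes in the table. The median level was 14.6 CPM over the 56 genes and 11.4 CPM over all genes. Among detected genes only, the order turned, with 21.7 CPM over the 43 and 24.1 CPM over all detected genes. Together the 56 took 0.246 ± 0.00893% of the counts (SD, n = 3). Only 4 genes averaged over 100 CPM, 28 lay between 10 and 100 CPM, 12 between 1 and 10 CPM and 12 under 1 CPM. The 13 genes that were not detected were Ccna1, Ccna2, Ccnb1, Ccnb1-ps, Ccnb2, Ccne1, Cdk1, Cdk15, Cdkn2a, Cdkn2b, Cdkn3, E2f2 and E2f8. Every A and B cyclin of the table was among them, and so was the mitotic kinase Cdk1.

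Within and between roles, levels of the 56 genes are ordered below only per length, as TPM: a gene's counts were divided by the length of its annotated exons, and the results of all genes of known length were brought to a sum of 1000000. Values are given for libraries 1, 2 and 3 in that order, or as mean ± SD (n = 3). Neighbours in an order were said to differ beyond their spread where the ranges of the 3 libraries did not overlap.

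**Figure D1:**
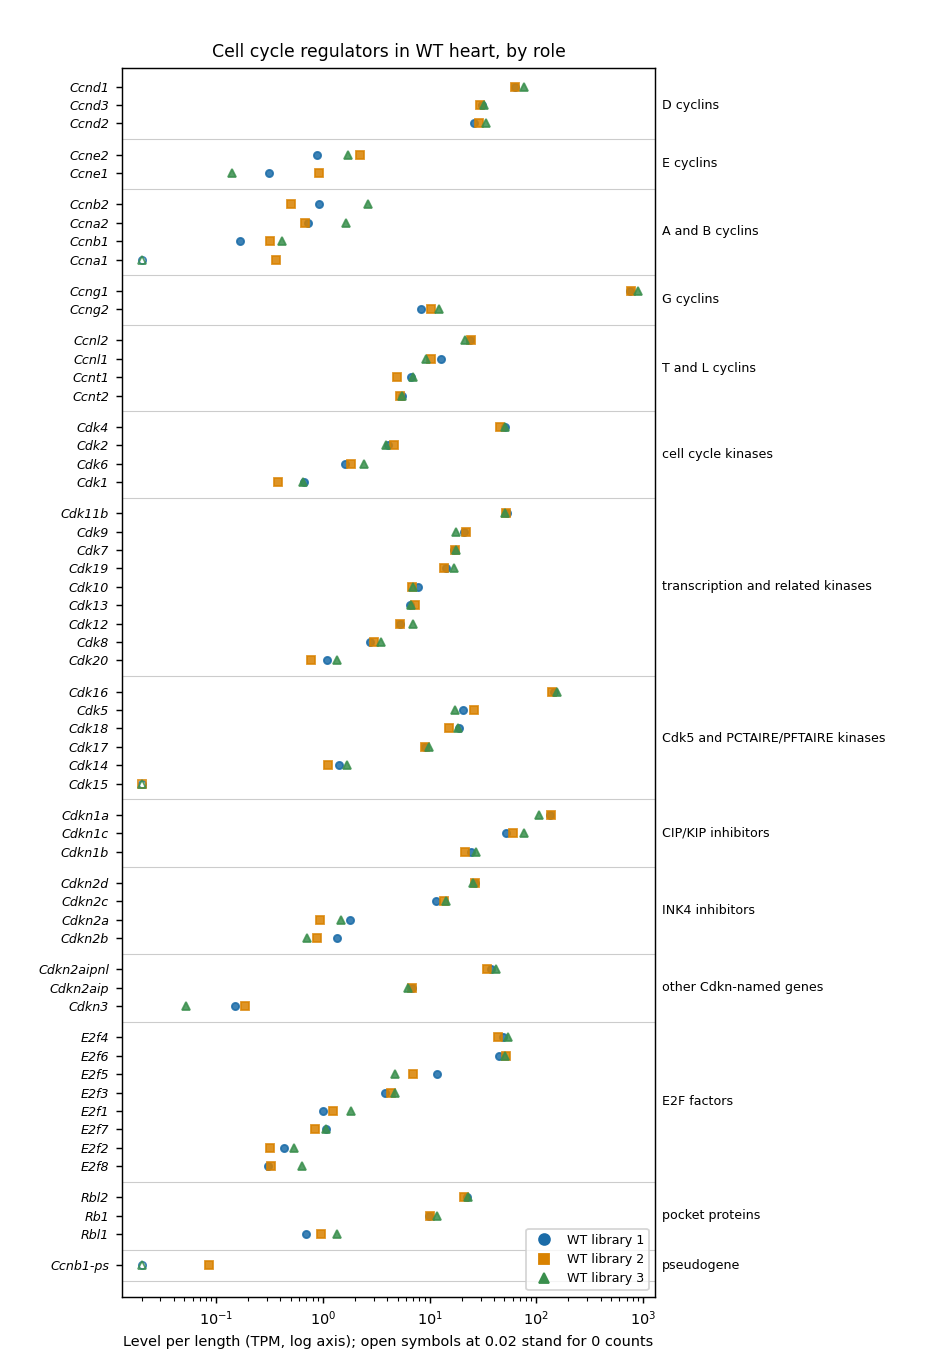
Level of each of the 56 genes in TPM (log axis), grouped by role and ordered by mean within a role, with a symbol for each of WT libraries 1, 2 and 3. Ccng1 stands highest at 809 TPM, and the E, A and B cyclins and Cdk1 lie at the low end, between about 0.1 and 3 TPM wherever they had counts.

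The D cyclins, which link growth signals to the cycle, were the abundant cell cycle cyclins of these hearts, and all 3 were detected. Ccnd2 stood at 26.3, 29.0 and 33.8 TPM, Ccnd3 at 31.1, 29.7 and 32.0 TPM and Ccnd1 at 63.5, 63.5 and 76.4 TPM. Ccnd1 was the highest in every library, and the ranges of Ccnd2 and Ccnd3 overlapped. Inside each library the ratio of Ccnd2 to Ccnd1, as log2 of length-corrected counts, was -1.19 ± 0.07 and that of Ccnd3 to Ccnd1 was -1.13 ± 0.11, with Ccnd1 higher in 3 of 3 libraries. The size of the lead of Ccnd1, but not its direction, depended on gene length. With the longest annotated transcript in place of all exons the ratio to Ccnd1 was -0.95 for Ccnd2 and -0.27 for Ccnd3. With no length correction it was -0.19 and -0.23. Ccnd1 shares 1100 bases of exon with LTO1 on the opposite strand, a gene with 399, 508 and 434 counts, and the strandedness of the counting was not given, so counts of such overlapping genes cannot be told apart.

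The cyclins of DNA synthesis and mitosis were near the detection limit. Ccne1, which activates Cdk2 at the start of DNA synthesis, had 7, 22 and 3 counts, and its relative Ccne2 had 26, 70 and 49 counts. Library 2 was highest for both E cyclins. Ccna2, the cyclin A of dividing somatic cells, had 25, 25 and 54 counts, and the mitotic cyclins Ccnb1 and Ccnb2 had 6, 12 and 14 counts and 12, 7 and 33 counts. Library 3 was highest for these 3 cyclins. Ccna1, known from male germ cells, had 0, 6 and 0 counts, and the pseudogene Ccnb1-ps had 0, 1 and 0.

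Per length, Ccne1 (0.455 ± 0.409 TPM) and Ccne2 (1.61 ± 0.681 TPM) overlapped in range, as did Ccnb2 (1.37 ± 1.15 TPM) and Ccna2 (1.01 ± 0.541 TPM). The ranges of Ccna2 and Ccnb1 (0.298 ± 0.123 TPM) did not overlap, and Ccna2 exceeded Ccnb1 by 1.68 ± 0.53 on the log2 scale, in 3 of 3 libraries. The low counts of Ccna2 and Ccne2 sit beside abundant neighbours on the opposite strand. Ccna2 shares 510 exon bases with Exosc9 (424, 414 and 379 counts), and Ccne2 shares 609 with Ints8 (323, 379 and 325 counts). How much these neighbours contributed was not tested. In sum the D cyclins stood at 121, 122 and 142 TPM, against 2.999, 5.005 and 6.59 TPM for the E, A and B cyclins, a 28.8 ± 10.1-fold difference that was 65.0-fold with no length correction.

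The most abundant of the 56 genes was a cyclin of another function. Ccng1, a cyclin G induced by p53, stood at 748, 778 and 901 TPM and alone made up 44.3% of the TPM of the 56 genes. It ranked at the 98.8 percentile of all genes by TPM. Its relative Ccng2, a gene induced by FoxO factors, had 8.25, 10.2 and 12.2 TPM, so Ccng1 was 6.32 ± 0.16 higher on the log2 scale, or 79.9-fold. The factor was 51.4 with no length correction.

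The T cyclins are partners of Cdk9 in the release of paused RNA polymerase II, and the L cyclins are partners of Cdk11b and linked to splicing. Ccnt2 had 5.43 ± 0.139 TPM and Ccnt1 had 6.22 ± 1.10 TPM, and their ranges overlapped. Ccnl2 had 23.8, 24.5 and 21.5 TPM and Ccnl1 had 12.8, 10.4 and 9.24 TPM. Ccnl2 was higher than Ccnl1 in 3 of 3 libraries, by 1.12 ± 0.19 on the log2 scale, or 2.17-fold. All 4 of these cyclins were detected.

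Among the cell cycle kinases, Cdk4 was the abundant member. It stood at 51.2, 45.4 and 50.3 TPM, against 1.60, 1.84 and 2.41 TPM for Cdk6, the other partner of D cyclins. Cdk4 exceeded Cdk6 by a log2 ratio of 4.67 ± 0.31, or 25.4-fold, in 3 of 3 libraries. The size of this ratio depended on the long exons annotated for Cdk6 and was 2.56 on the log2 scale, or 5.91-fold, with no length correction. Cdk4 shares 641 exon bases with Tspan31 (1584, 1781 and 1594 counts) on the opposite strand.

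Cdk2, the partner of E and A cyclins, had 4.04, 4.59 and 3.92 TPM. Cdk1, the CDK that drives mitosis, had 28, 17 and 26 counts, or 0.669, 0.382 and 0.652 TPM. The order Cdk4, Cdk2, Cdk6 and Cdk1 held with no overlap between neighbouring ranges. Cdk4 exceeded Cdk1 by 6.44 ± 0.35 on the log2 scale, and Cdk2 exceeded Cdk1 by 2.89 ± 0.56. With the longest transcript the ratio of Cdk2 to Cdk1 was 3.65, and with no length correction that of Cdk4 to Cdk1 was 5.84. With no length correction Cdk4 exceeded Cdk2 by 2.61 and Cdk6 by 2.56, so the order of Cdk2 and Cdk6 rested on gene length.

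The kinases that act on transcription, grouped here with related kinases, were all detected, 9 of 9. The sum of this group, 129, 127 and 129 TPM, was alike in the 3 libraries. Cdk11b, a kinase tied to transcription and splicing, led with 53.4, 51.6 and 50.7 TPM. Cdk9, the kinase of the elongation factor P-TEFb, had 828, 911 and 656 counts, or 20.2 ± 2.31 TPM, and Cdk7, the kinase of the general factor TFIIH and the activator of other CDKs, had 533, 573 and 531 counts, or 17.3 ± 0.404 TPM, with overlapping ranges. The Mediator kinases differed, with Cdk8 at 2.78, 2.99 and 3.51 TPM and its paralog Cdk19 at 14.3, 13.5 and 16.9 TPM. The log2 ratio of Cdk8 to Cdk19 was -2.27 ± 0.09, with Cdk19 higher in 3 of 3 libraries, and shrank to -0.94 with the longest transcript and -1.52 with no length correction. Cdk12 (5.82 ± 0.990 TPM) and Cdk13 (6.86 ± 0.414 TPM), both elongation kinases, overlapped. Cdk10 stood at 7.22 ± 0.469 TPM and Cdk20 at 1.07 ± 0.291 TPM, the lowest of the group.

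A group of kinases best known from neurons and from signalling outside the cycle held the most abundant CDK of these hearts. Cdk16, a PCTAIRE kinase activated by cyclin Y, stood at 146, 139 and 156 TPM, at the 94.3 percentile of all genes. Its paralogs were lower, with Cdk18 at 766, 646 and 704 counts, or 17.4 ± 2.09 TPM, and Cdk17 at 9.13, 9.06 and 9.89 TPM. Cdk16 exceeded Cdk17 by 3.97 ± 0.03 on the log2 scale. That SD was the smallest of the 33 ratios measured, and being the smallest of many it does not show a tightly held ratio. Cdk5, which pairs with the activators Cdk5r1 and Cdk5r2 in neurons, had 20.7, 26.1 and 17.2 TPM and overlapped with Cdk18. Cdk14 had 226, 191 and 259 counts, or 1.41, 1.12 and 1.70 TPM, and its relative Cdk15 had 0 counts in all libraries.

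**Figure D2:**
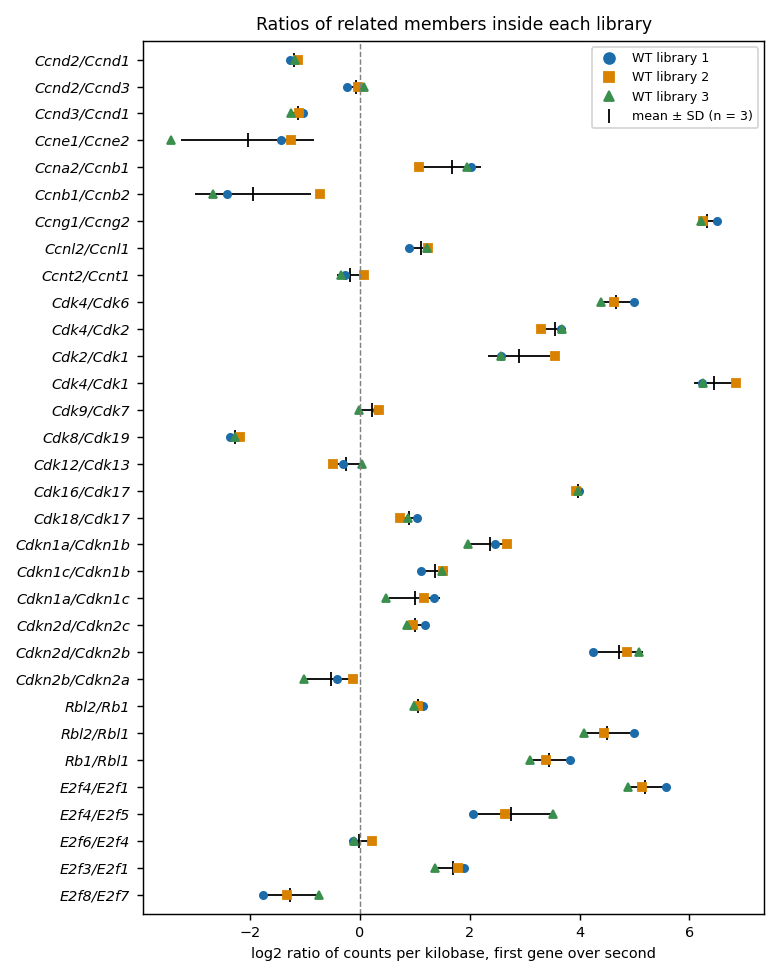
Log2 ratio of counts per kilobase of 32 pairs of related genes (all but Cdk14/Cdk15) (first gene over second) in each WT library, with the mean and SD over 3 libraries; the dashed line marks equal levels. Most pairs lie on the same side of 0 in every library, while Ccnd2/Ccnd3, Ccnt2/Ccnt1, Cdk9/Cdk7, Cdk12/Cdk13 and E2f6/E2f4 cross it.

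The CIP/KIP inhibitors were all detected and summed to 211, 219 and 209 TPM. Cdkn1a, the p53-induced inhibitor p21, was the highest at 134, 137 and 106 TPM. Cdkn1c, the imprinted inhibitor p57, had 52.5, 60.6 and 75.9 TPM, and Cdkn1b, the inhibitor p27 of resting cells, had 24.3, 21.3 and 27.0 TPM. Cdkn1a was lowest in library 3, where Cdkn1c and Cdkn1b were highest. The 3 ranges did not overlap, in the order Cdkn1a, Cdkn1c and Cdkn1b. Cdkn1a exceeded Cdkn1b by 2.37 ± 0.36 on the log2 scale, and Cdkn1c exceeded Cdkn1b by 1.37 ± 0.23, each in 3 of 3 libraries. Cdkn1a exceeded Cdkn1c by 1.35, 1.17 and 0.48 on that scale. With the longest transcript Cdkn1a exceeded Cdkn1b by 3.14 and Cdkn1c by 1.67, and with no length correction Cdkn1c exceeded Cdkn1b by 0.21 and Cdkn1a exceeded Cdkn1c by 1.80.

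The INK4 inhibitors were lower in sum, at 41.1, 42.1 and 41.9 TPM, and came almost wholly from 2 of the 4 genes. Cdkn2d (p19INK4d) had 26.4, 26.6 and 25.5 TPM and Cdkn2c (p18) had 11.5, 13.6 and 14.1 TPM, which put Cdkn2d above Cdkn2c by 1.005 ± 0.17 on the log2 scale, or 0.23 with no length correction. The senescence-associated genes were near the floor, with Cdkn2b (p15) at 16, 11 and 8 counts and Cdkn2a (p16 and p19ARF) at 18, 10 and 14 counts. Their ranges overlapped per length, and a gene count does not separate the transcripts of Cdkn2a.

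The CIP/KIP sum was 5.10 ± 0.106 times the INK4 sum in TPM, and 8.62 times with no length correction. It was 1.67 ± 0.173 times the D cyclin sum in TPM, but 0.792 times with no length correction, so that direction rested on gene length. The INK4 sum was 0.821 ± 0.0614 times the sum of Cdk4 and Cdk6 in TPM, and 0.428 times with no length correction. These sums were formed after the levels had been seen. Of the remaining genes with such names, Cdkn2aipnl and Cdkn2aip were detected. Cdkn2aip (229, 240 and 199 counts) encodes a protein that binds the Cdkn2a product, and Cdkn2aipnl (622, 615 and 661 counts) is a relative of Cdkn2aip. Cdkn3, a phosphatase of CDKs, had 3, 4 and 1 counts.

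The pocket proteins, which hold E2F factors on promoters of cell cycle genes, were all detected at unequal levels. Rbl2 (p130), the member known from resting cells, had 22.2, 21.2 and 23.1 TPM, Rb1 had 9.95, 10.1 and 11.7 TPM, and Rbl1 (p107), the member known from dividing cells, had 0.688, 0.963 and 1.36 TPM. The 3 ranges did not overlap. Rbl2 exceeded Rbl1 by 4.50 ± 0.46 on the log2 scale, or 22.7-fold, and Rb1 by 1.07 ± 0.09, or 2.10-fold, in 3 of 3 libraries. Rbl2 shares 693 exon bases with Aktip (1751, 1899 and 1722 counts), and Rb1 shares 488 with Rcbtb2 (516, 684 and 628 counts) and 408 with Lpar6 (92, 228 and 228 counts), all on the opposite strand.

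Among the E2F factors the repressors E2f4 and E2f6 led. E2f6, which represses without pocket proteins, had 44.9, 51.5 and 50.8 TPM, and E2f4, the usual partner of Rbl2, had 49.0, 44.1 and 54.7 TPM. Their ranges overlapped, and the ratio of E2f6 to E2f4 was -0.003 ± 0.196 on the log2 scale, against 0.61 with the longest transcript and 1.20 with no length correction. E2f5, another partner of pocket proteins, had 11.6, 7.04 and 4.72 TPM.

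The activator E2F factors were lower. E2f3 had 177, 212 and 210 counts, or 4.32 ± 0.472 TPM, E2f1 had 27, 35 and 47 counts, or 1.36 ± 0.432 TPM, and E2f2 had 18, 14 and 21 counts. E2f4 exceeded E2f1 by 5.20 ± 0.35 on the log2 scale, or 36.7-fold, and E2f3 exceeded E2f1 by 1.69 ± 0.29, each in 3 of 3 libraries. With no length correction E2f3 exceeded E2f1 by 2.47. The sum of E2f4 to E2f6 was 17.6 ± 2.29 times that of E2f1 to E2f3 in TPM. The atypical repressors were also low, with E2f8 at 14, 16 and 28 counts and E2f7 at 81, 68 and 78 counts, or 0.422 ± 0.186 and 0.989 ± 0.132 TPM.

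Over the 33 pairs of related genes, 28 lay on the same side of equality in all 3 libraries. Moving to the longest transcript changed 11 of the 33 ratios by over 1.5 times, and leaving out the length correction changed 15.

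Promoters of these genes were searched for the letters of the E2F site, since E2F factors and pocket proteins act there. RefSeq promoter windows (GRCm38.p6, 250 bases before to 50 after each start) matched 44 of the 56 genes by symbol. The 12 others were not searched. They were Ccna2, Ccnb1-ps, Ccne2 and E2f5, under 10 CPM, and Ccnd1, Ccnd2, Cdk5, Cdk17, Cdk19, Cdkn1c, E2f4 and Rb1, above it. The motifs were TTTGGCGC, TTTCCCGC, TTTCGCGC and TTTGCCGC on either strand. A match was found in 7 of these 44 genes (15.9%), against 4.14% of the 13023 genes of the table with a window and 2.27% of all 32851 windows. The 7 genes were Cdk1, Cdk2, Cdkn2a, E2f2, E2f3, E2f7 and Rbl1. All of them lay between 0.551 and 8.69 CPM, so that 7 of 20 genes under 10 CPM held a match and 0 of 24 genes at 10 CPM or more did. This split was made after the levels were seen. Among all genes of the table with a window, 3.69% of those under 10 CPM and 4.52% of those at 10 CPM or more held a match. A match is a description of the letters and not a bound site, and its absence says only that these letters are not in the window.

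The stretches upstream of the start that hold the matches are shown so that the letters can be read in place, and E2f2 is not shown because its match lies after the start. They run 5′ to 3′ on the gene's strand, and capitals mark the E2F letters (TTTCGCGC, TTTCCCGC or its reverse complement GCGGGAAA) and the CHR motif TTTGAA, a site of the MuvB complex in genes of G2 and mitosis. Positions are GRCm38.p6.
Cdk1, chr10:69352913-69353073, minus strand: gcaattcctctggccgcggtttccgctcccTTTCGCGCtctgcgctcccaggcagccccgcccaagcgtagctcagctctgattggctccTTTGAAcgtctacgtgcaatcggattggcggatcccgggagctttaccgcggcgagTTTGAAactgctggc
Cdk2, chr10:128705164-128705221, minus strand: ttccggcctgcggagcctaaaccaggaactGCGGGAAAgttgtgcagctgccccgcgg
Cdkn2a, chr4:89294691-89294748, minus strand: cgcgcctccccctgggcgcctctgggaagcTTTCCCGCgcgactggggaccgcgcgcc
E2f3, chr13:29986064-29986104, minus strand: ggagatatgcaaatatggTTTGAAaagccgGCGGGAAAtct
E2f7, chr10:110745211-110745268, plus strand: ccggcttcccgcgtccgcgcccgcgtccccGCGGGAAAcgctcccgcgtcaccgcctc
Rbl1, chr2:157204535-157204582, minus strand: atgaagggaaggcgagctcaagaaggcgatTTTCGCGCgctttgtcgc

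The E2F letters stood from -131 to -124 of the start in Cdk1, from -18 to -11 in Rbl1 and from -11 to -4 in E2f3. Cdk1 also held the CHR letters from -71 to -66 and from -15 to -10. The CHR motif, searched as TTTGAA and TTCGAA on either strand, was found in 9 of 44 genes (20.5%) and in 17.2% of the genes of the table with a window. It occurred both in genes near the floor, such as Ccnb2, Cdkn3 and E2f8, and in abundant ones, such as Cdk16 and Rbl2.

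Other genes of the pathway were read from lists chosen for their function. Counts of detected genes in these lists stand beside 71.3% detected over all genes of the table. From each list the 3 genes with the highest and the 2 with the lowest mean CPM are given. CPM grows with transcript length, so their values, and the medians of the lists, are counts found and not an order of levels per length. Of 11 other cyclins, whose symbols have no digit right after the letter that follows Ccn, 8 were detected. The median of the 11 was 17.5 CPM. At the upper end of counts were Ccni (191 ± 8.82 CPM), Ccny (173 ± 11.3 CPM), the partner of Cdk16, and Ccnk (36.7 ± 2.70 CPM), the partner of Cdk12 and Cdk13. Ccno had 2, 5 and 3 counts and Ccnf had 5, 13 and 8.

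Among 15 activators and brakes of the kinases 9 were detected. Those with the most counts were Fbxw7 (43.4 ± 2.24 CPM), which marks cyclin E for destruction, Fzr1 (36.2 ± 4.34 CPM), the anaphase-promoting complex activator of G1, and Wee1 (32.7 ± 1.10 CPM), which inhibits Cdk1. The mitotic phosphatase Cdc25c had 0, 0 and 6 counts and the neuronal Cdk5 activator Cdk5r2 had 3, 4 and 2. Of 11 genes of the DREAM complex and of E2F or P-TEFb partners 9 were detected. Rbbp4 (102 ± 2.51 CPM) and the E2F partners Tfdp2 (98.8 ± 7.84 CPM) and Tfdp1 (35.3 ± 1.04 CPM) had the most counts. Mybl2 (15, 1 and 5 counts) and Foxm1 (25, 39 and 19 counts), known from dividing cells, had the fewest.

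Genes of DNA synthesis and of mitosis had different shares above the limit, with 7 of 20 G2 and M phase genes detected and 18 of 20 S phase genes. Their median levels were 0.900 CPM for the G2 and M phase list and 6.25 CPM for the S phase list. In the G2 and M phase list most counts fell on Cenpa (25.8 ± 3.73 CPM) and Cenpf (13.4 ± 2.43 CPM), centromere proteins, and on the division marker Mki67 (113, 78 and 86 counts), while Bub1 had 6, 0 and 0 counts and Ndc80 12, 2 and 4. In the S phase list most counts fell on Pcna (44.2 ± 2.11 CPM), Gmnn (35.1 ± 2.63 CPM) and Rrm1 (19.2 ± 1.56 CPM), and Chaf1b (13, 6 and 9 counts) and Cdc6 (26, 33 and 35 counts) had the fewest.

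Since Ccng1 and Cdkn1a are p53 targets, 15 genes of the p53 response, Trp53 among them, were read as well. Of these 14 were detected, with Sesn1 at 249 ± 14.7 CPM, Btg2 at 68.1 ± 13.9 CPM and Mdm2 at 48.1 ± 3.03 CPM at the upper end of counts, and Pmaip1 (13, 3 and 10 counts) and Eda2r (3.02 ± 0.571 CPM) at the lower.

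**Figure D3:**
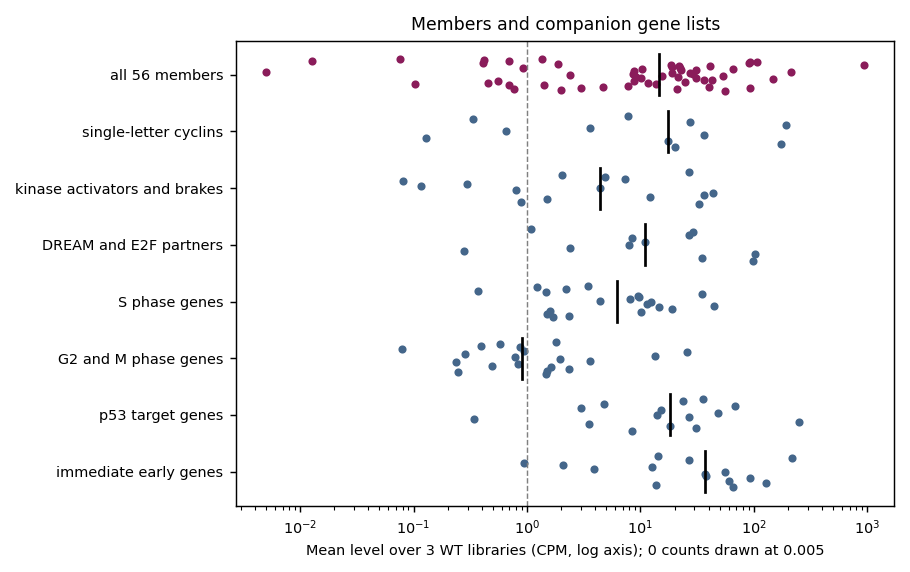
Mean CPM over 3 WT libraries (log axis) of each gene among the 56 and in the lists of related genes; bars mark the median of each row and the dashed line marks 1 CPM. The G2 and M phase genes have a median of 0.900 CPM, under the line, and the other rows have medians above it.

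The only test across all genes that a single group allows is whether a gene differed between the 3 libraries more than genes of its level. It used edgeR's negative binomial model with an intercept, on 12521 genes past a filter of low counts, of which 47 belong to the 56. The 9 others (Ccna1, Ccnb1, Ccnb1-ps, Ccnb2, Ccne1, Cdk15, Cdkn2a, Cdkn2b and Cdkn3) had too few counts. By edgeR, 0 of the 47 genes passed an adjusted p of 0.05, beside 0.591% of all genes tested, and 0 passed with DESeq2's dispersion trend, beside 0.543% of all genes. At an unadjusted edgeR p under 0.05 there were 3 of 47 genes, or 6.38%, beside 5.39% of all genes, a share near the background. The median SD of log2 CPM was 0.15 over the 47 genes and 0.14 over all genes tested.

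The 3 genes at an unadjusted p under 0.05 were E2f5, Cdkn1a and Cdk5. E2f5 had 6.95, 4.28 and 2.73 CPM, highest in library 1 (edgeR adjusted p = 0.557). Cdkn1a had 159, 166 and 122 CPM, with library 3 below the other two (edgeR adjusted p = 0.645). Without library 3 the unadjusted p of Cdkn1a was 0.765. Cdk5 had 380, 510 and 301 counts, highest in library 2 (edgeR adjusted p = 0.829). The unadjusted values were 0.0121 for E2f5, 0.0178 for Cdkn1a and 0.0356 for Cdk5. After adjustment none of the 3 differences between libraries passed the threshold.

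Several immediate early genes, which respond within minutes to stress and handling, differed between the libraries. The 15 of the list summed to 924, 796 and 580 CPM. By edgeR 8 of them passed an adjusted p of 0.05, beside 0.591% of all genes tested. These 8 were Fos, Fosl2, Junb, Egr1, Egr3, Atf3, Nr4a1 and Dusp1. Of the 15, 10 were lowest in library 3, where Cdkn1a was lowest, and 5 were lowest in library 2, where Cdkn1a was highest. Nr4a1 had 112, 43.9 and 40.9 CPM and Egr3 had 113, 21 and 24 counts, both highest in library 1. Dusp1 had 227, 273 and 146 CPM, and Klf4 had 128 ± 25.7 CPM, Jun 91.8 ± 9.55 CPM and Egr2 33, 14 and 25 counts. The p53 list summed to 540, 568 and 543 CPM, and 0 of its 14 tested genes passed by edgeR or by DESeq2. The 1 gene at an unadjusted p under 0.05 was Btg2, with 81.0, 69.8 and 53.3 CPM (edgeR unadjusted p = 0.00457), also lowest in library 3. Of the 15 genes of the p53 list, 6 were lowest in library 1, 3 in library 2 and 6 in library 3. Whether the early response or the p53 response played a part in the level of Cdkn1a was not tested.

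At the other end were the genes of least spread between these 3 libraries. They were picked as the lowest of the 47, so their SDs do not show a level steady beyond counting error. Ccnt2 had 22.7, 22.2 and 22.2 CPM, with an SD of log2 CPM of 0.02, the lowest of the 47 genes. Ccnd3 (91.4, 88.9 and 91.2 CPM), Cdk7 (21.1, 21.7 and 21.3 CPM) and Rbl2 (56.3, 54.7 and 56.7 CPM) had SDs of 0.02, 0.02 and 0.03. Ccne2, with 1.03, 2.65 and 1.97 CPM, had the highest SD, 0.69, at a level where counting error is large (edgeR unadjusted p = 0.0958).

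**Figure D4:**
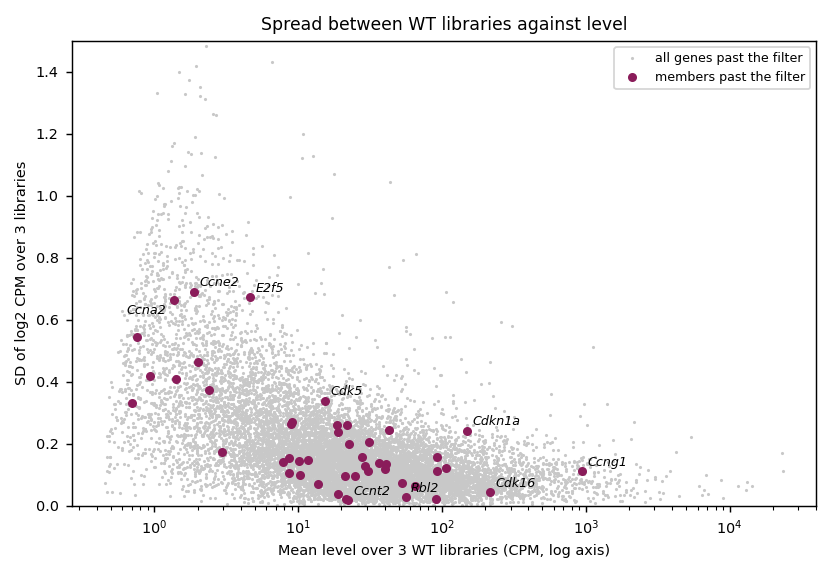
SD of log2 CPM over the 3 WT libraries against mean CPM (log axis), with the 47 tested genes of the cell cycle set drawn over all 12521 genes past the filter; the vertical axis ends at 1.5. Most of the 47 lie inside the cloud of genes of their level, with E2f5, Cdk5 and Cdkn1a toward its upper edge.

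The direction of the small differences was uneven. Library 3 gave the highest CPM for 25 of the 47 genes (53.2%), beside 38.6% of all genes tested, and the highest TMM-scaled CPM for 24 of 47 (51.1%), beside 34.3%, with library 2 highest in 33.6% and library 1 in 32.0% of all genes on that scale. Library 2 was highest for 12 and library 1 for 10 of the 47 by CPM, beside 32.6% and 28.8% of all genes. The genes highest in library 3 included Ccnd1, Ccnd2, Ccng1, Cdk6, Cdkn1c, E2f1, Rb1 and Rbl1. For Rbl1 the counts were 35, 52 and 66. Markers of pericytes and smooth muscle summed to 1398, 1511 and 1725 CPM, with 7 of 8 highest in library 3, those of fibroblasts to 1365, 1634 and 1724 CPM, with 6 of 8 highest there, and those of endothelium to 2469, 2584 and 2720 CPM, with 4 of 8 highest there. Of 6 mesothelium markers 5 were highest in library 3 and were at or near 0 in the others, as for Upk3b with 2, 0 and 212 counts and Msln with 0, 0 and 107, while Wt1 had 506, 395 and 252. Macrophage markers summed to 1103, 1039 and 1029 CPM, with 5 of 8 lowest in library 2 and 3 of 8 lowest in library 3. Heart muscle markers summed to 98776, 93390 and 98573 CPM. The part of these cells in the levels of library 3 was not tested.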

How the data were processed

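Poly(A) RNA of WT mouse hearts was measured in 3 libraries of 1 group. The deposited values are whole, unnormalized counts listed by gene symbol. HISAT2 2.0.4, Bowtie2 2.2.5, RSEM and build GRCm39 are named, without role or order, in the submitters' processing notes. As RSEM estimates counts, these may have been rounded, and reads of similar genes divided between them. Levels were computed as CPM of the library total and as TPM. TPM used exon lengths of GENCODE M21, which describes an older build than that named. These lengths were matched by symbol for 16077 genes (96.9%), all 56 genes described here among them. The exon overlaps between genes came from the coordinates of the same annotation. Ratios used 0.5 added counts and no test, since 3 libraries allow no exact test below 0.05. Spread between libraries was tested with edgeR 4.0.16 (R 4.3.3): TMM, its default filter, trended dispersion, deviance against chi-square, Benjamini-Hochberg over all genes at 0.05, tested on simulated data. Alternatives changed normalization, filter, tool (DESeq2 1.42.0), detection limit, gene length and pseudocount, or left out a library. The genes, roles, pairs and lists were chosen with earlier results of these data known. Values per library were given for the genes of quoted pairs, the 2 highest of each role, genes under 1 CPM and genes with an unadjusted p under 0.05. From each list of related genes the 3 highest, 2 lowest and any variable genes were named. Lists of cell type markers were given mainly as sums, and their variable genes were not all named. The genes named as highest in library 3 and those of least spread were picked after their values were seen.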

Additional observations from a re-analysis of the deposited data

How the results depend on the processing

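No paired analysis was possible because the study has a single group. Among the cell cycle genes described here, the count past the edgeR threshold was 0 with RLE or no normalization and with no filter. It was also 0 with at least 30 counts in any library, with DESeq2's trend and without each library in turn. The number detected was 47 at 0.5 CPM, 39 at 2 CPM, 44 by the mean, 43 with TMM scaling and 43 to 44 without each library. For ratios, leaving out 1 of 3 libraries cannot move the mean by 1 SD and says nothing about stability. With the longest transcript the log2 ratio was -0.95 for Ccnd2/Ccnd1, 5.05 for Cdk4/Cdk6 and 3.14 for Cdkn1a/Cdkn1b, and Cdk9/Cdk7 turned to -0.31, against 0.22. With no length correction Ccnd2/Ccnd1 was -0.19, Cdk4/Cdk6 2.56 and E2f4/E2f1 4.84. These shifts follow from the lengths alone. Genes at a few counts, such as Ccne1, Ccnb1 and Cdkn3, are limited by depth.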
